A study of Mus musculus with 10 samples.

Results

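The genes described are the phase II conjugating enzymes of the mouse liver, namely the UDP-glucuronosyltransferases (Ugt), the sulfotransferases (Sult) and the soluble glutathione S-transferases (Gst). They were taken as every transcript row whose gene symbol starts with Ugt or Sult and a digit, or with Gst, a class letter (a, m, p, t, k, o or z) and a digit. This gave 61 of 24016 rows, 21 Ugt, 19 Sult and 21 Gst, each with its own symbol. RNA sequencing was done on the livers of male C57BL/6 mice aged 8 to 12 weeks at the gene transfer. AdVEGF mice (n = 5) received in the tail vein an adenovirus of serotype 5 that expresses VEGF-A from the CMV promoter, which is not restricted to one cell type, and AdCMV mice (n = 5) received an empty vector that holds this promoter alone. All 10 livers were thus exposed to adenovirus and were collected on day 6, and no liver of an uninjected mouse was analysed here. Values are RPKM, reads for each kilobase of a transcript relative to the library's mapped tags.

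Phase II enzymes attach a polar group to drugs, steroids, bilirubin, bile acids and reactive electrophiles so that the product can be excreted in bile or urine. Ugt enzymes sit in the endoplasmic reticulum and transfer glucuronic acid from UDP-glucuronate, Sult enzymes are cytosolic and transfer sulfate from the donor PAPS, and Gst enzymes join glutathione to electrophiles. In the liver these enzymes are found mainly in hepatocytes, and many of them are inducible through the receptors PXR, CAR and AhR or through the oxidative stress factor Nrf2. The Ugt1a transcripts come from one locus at which alternative first exons, each with its own promoter, are spliced to a shared set of later exons, whereas the Ugt2b, Gsta, Gstm and Gstp genes lie in clusters of similar copies. In whole liver, fewer cells of a type and less RNA per cell cannot be told apart.

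Sequencing depth was 5758960 to 13494000 mapped tags in the AdCMV group and 5596570 to 8133950 in the AdVEGF group, and 3 reads on a transcript of 1 kb equal 0.222 to 0.536 RPKM. The members held 0.969% to 1.93% of the reads on transcripts in AdCMV mice and 0.617% to 1.11% in AdVEGF mice. The major urinary protein (Mup) genes, secreted products of hepatocytes, held 18.0% to 50.5% in AdCMV mice and 7.84% to 28.6% in AdVEGF mice, so the Mup genes took less of what RPKM divides up. The deposited RPKM of all 13933 rows tested had a median log2 fold change of 0.38, so calls were counted on the deposited RPKM and after median-ratio scaling between libraries, which brought that median to -0.0044. Values by mouse and summed RPKM are on the deposited scale unless marked as scaled. Among the members, 2 mice stood apart from their groups. On scaled RPKM, AdCMV 3 was over 2-fold above the median of its other 4 group members for 6 of the 46 members tested and over 2-fold below for 2. It was the highest of its group for 14 and the lowest for 13. AdVEGF 4 was over 2-fold below for 17, over 2-fold above for 3 and the lowest of its group for 37 (scaled RPKM). Hepatocyte markers were present in all 10 libraries, with a summed RPKM of 28906 to 34415 in AdCMV mice and 46260 to 58920 in AdVEGF mice.

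Of the 61 members, 46 had a group mean above 0.5 RPKM in AdCMV or AdVEGF mice and were tested, 20 Ugt, 7 Sult and 19 Gst. Means were over 10 RPKM in both groups for 38 of the 46. The estrogen sulfotransferase Sult1e1 passed only through its mean in the AdVEGF group. The 15 others had at most 6 reads in any library and at most 0.508 RPKM, and 4 of them (Sult1c1, Sult2a3, Sult2a4 and Sult2a6) had no read in any mouse. Those 15 were 8 Sult2 genes, Sult1c1, Sult3a1, Sult4a1, Sult6b1, Gsto2, Gstt4 and Ugt8a. The Sult2a genes encode hydroxysteroid and bile acid sulfotransferases, and among their rows only Sult2a8 carried more than 4 reads in a mouse.

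On the deposited RPKM, no member was called higher in AdVEGF mice and 4 of the 46 (8.70%) were called lower, Gsta1, Gsta2, Sult1c2 and Ugt2b34 (limma on log2(RPKM + 0.1), Benjamini-Hochberg adjusted p under 0.05 with a log2 fold change above 1 or below -1). Of all 13933 rows tested, 13% were called higher and 1.54% lower. After median-ratio scaling, again no member was called higher and 20 (43.5%) were called lower, against 7.77% and 3.14% of all rows. The 20 included the first 4, and were 12 Gst, 6 Ugt and 2 Sult genes. Adjusted p alone was under 0.05 for 14 of the 46 members on the deposited RPKM, against 3366 of all 13933 rows. After scaling it was under 0.05 for 31 members, against 3208 of all rows. The 31 include all 8 Ugt1a rows, which share most of their reads and amount to about 1 measurement. The similar pairs Gsta1 with Gsta2 and Gstp1 with Gstp2 are in both counts. The median log2 fold change of the 46 members was -0.55 on the deposited RPKM and -0.90 after scaling. Of the 46, 43 lay below the median of all rows, the 8 Ugt1a rows among them.

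The groups were also compared for overlap. Every AdVEGF value lay below every AdCMV value for 5 members (10.9%; Gsta1, Gsta2, Gstp1, Gstp2 and Ugt2b36) on the deposited RPKM, against 1.29% of all rows. It lay above for 2 members, Sult1a1 and Gstm5, against 14.3% of all rows. After scaling, 25 members (54.3%) lay below without overlap and none above, against 7.16% and 10.6% of all rows. The 25 include all 8 Ugt1a rows, which share most of their reads, and without these rows the count was 17 of 38. The plot of fold changes shows both sets of estimates, and the map of values by mouse shows the same members in each liver.

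**Figure D1:**
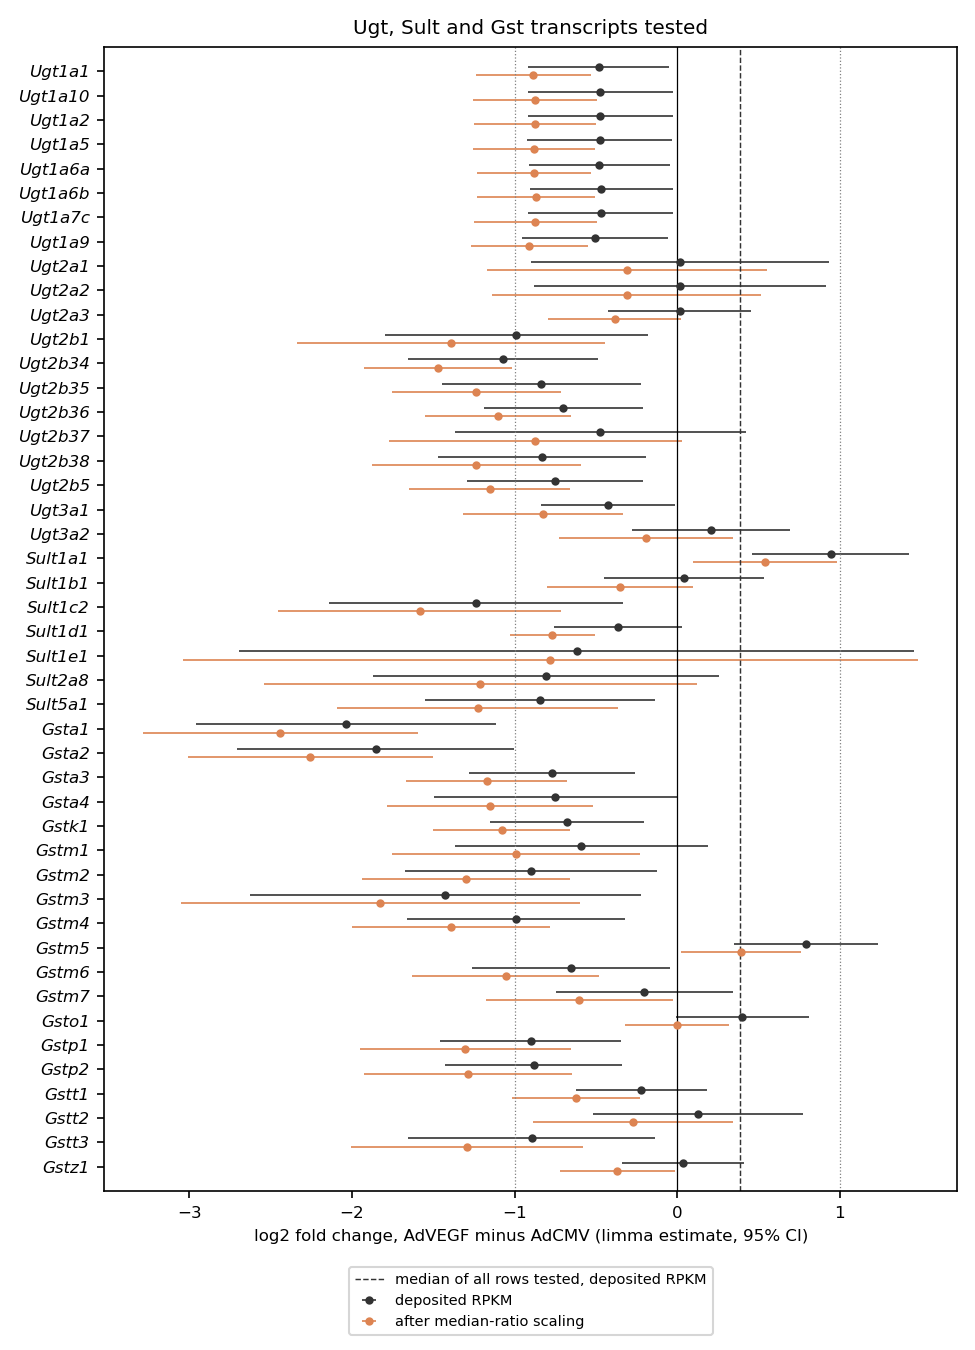
Log2 fold change (AdVEGF minus AdCMV, limma estimate on log2(RPKM + 0.1) with 95% confidence interval, n = 5 mice a group) of the 46 members tested, on the deposited RPKM (black) and after median-ratio scaling (orange). The dashed line marks the median of all 13933 rows on the deposited RPKM, 0.38, and dotted lines mark the call limits of -1 and 1. Sult1a1 and Gstm5 are the farthest to the right, and Gsta1 and Gsta2 the farthest to the left.

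**Figure D2:**
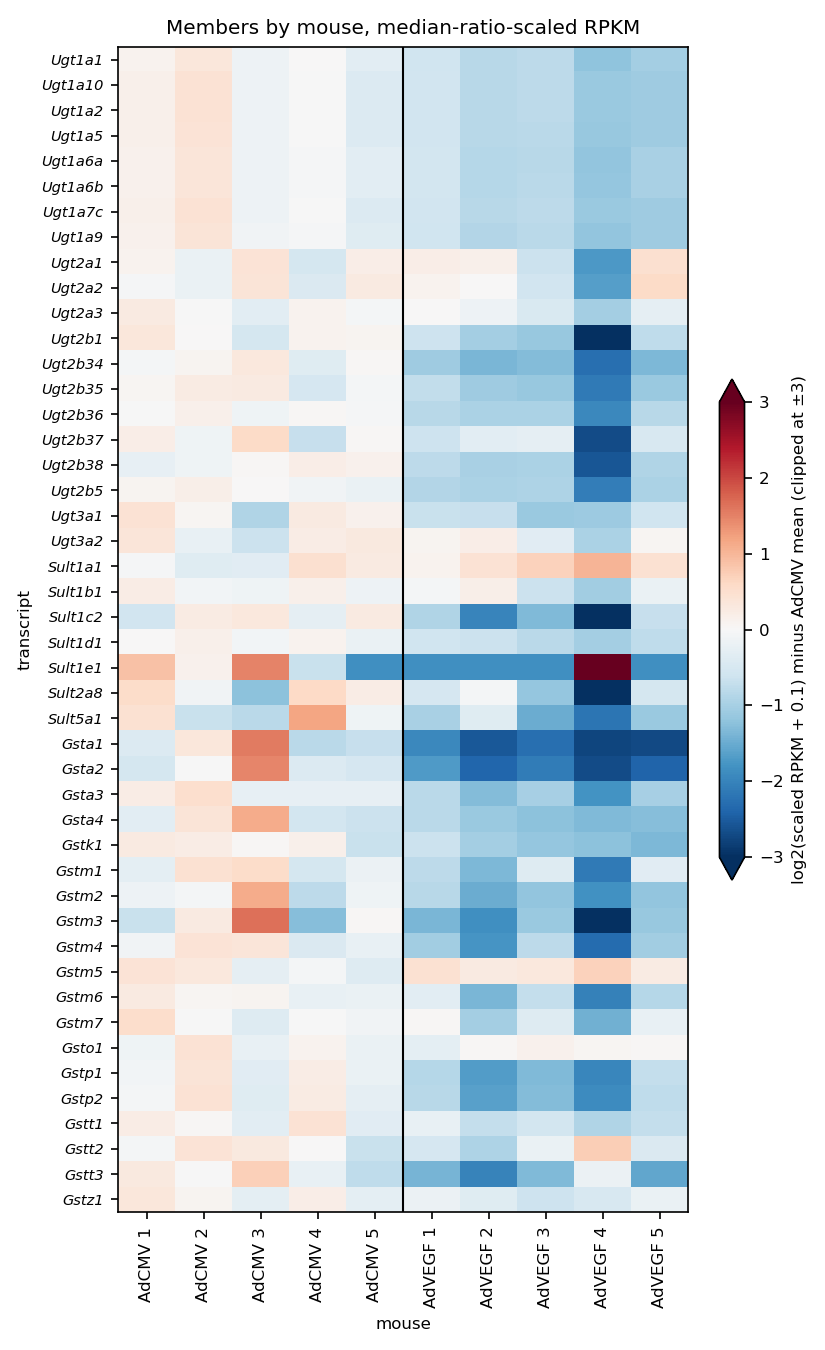
Median-ratio-scaled values of the 46 members in each of the 10 mice, as log2(scaled RPKM + 0.1) minus the mean of the 5 AdCMV mice, with blue below and red above that mean and colours clipped at 3 in either direction. The 5 AdVEGF columns are blue for most rows, AdVEGF 4 is the lowest of its group in 37, and AdCMV 3 is red for Gsta1, Gsta2, Gsta4, Gstm2 and Gstm3.

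The alpha-class Gst enzymes conjugate electrophiles and reduce lipid peroxides, and Gsta1 and Gsta2 are inducible members. The largest falls among the members were in this class. The promoters of this pair are shown because both transcripts moved together and because their sequences are close. The windows run from 250 bases before to 50 after the RefSeq start (GRCm38.p6), for Gsta1 at chr9:78230419-78230718 on the plus strand and for Gsta2 at chr9:78347096-78347395 on the minus strand. Capitals mark GCGTG, the core letters bound by AhR, found on either strand in 32.4% of all 32851 promoter windows of RefSeq. It starts 2 bases before the start of Gsta1 and 7 bases before that of Gsta2.
Gsta1: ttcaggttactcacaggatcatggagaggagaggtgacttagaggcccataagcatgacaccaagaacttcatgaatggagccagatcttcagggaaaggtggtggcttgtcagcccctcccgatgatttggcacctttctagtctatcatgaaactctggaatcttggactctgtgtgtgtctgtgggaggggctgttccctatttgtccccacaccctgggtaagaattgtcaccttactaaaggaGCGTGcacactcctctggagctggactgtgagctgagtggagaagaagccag
Gsta2: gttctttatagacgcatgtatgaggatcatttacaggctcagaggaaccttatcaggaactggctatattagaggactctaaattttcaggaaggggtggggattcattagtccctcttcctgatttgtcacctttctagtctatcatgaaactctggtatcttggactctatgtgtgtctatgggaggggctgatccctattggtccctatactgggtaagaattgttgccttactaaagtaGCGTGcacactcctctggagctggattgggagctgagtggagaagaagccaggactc

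Aligned end to end, these promoter windows are 83.8% identical over 284 aligned bases, and the transcripts are 97.2% identical. Of the 50-base words of the Gsta1 transcript, 44.6% occur in Gsta2, so reads from one may be counted on the other and the pair is not independent. Transcript positions are those of the deposited table (mm9), chr9:78078476-78090490 for Gsta1 and chr9:78178827-78194952 for Gsta2. Among 53 members with a RefSeq promoter, 10 hold GCGTG in 12 of 64 windows (18.8%).

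In AdCMV mice 1 to 5, Gsta1 was at 187, 321, 1147, 119.9 and 193 RPKM, and in AdVEGF mice at 95.9, 64.0, 82.2, 55.7 and 48.5. Every AdVEGF value was below every AdCMV value, and AdCMV 3 stood far above its group (log2 fold change -2.04, SE 0.44, adjusted p = 0.00270, and after scaling -2.44, SE 0.39, adjusted p = 0.000610). Gsta2 was at 76.7, 113, 483, 70.5 and 99.3 RPKM in AdCMV mice and at 50.9, 31.8, 41.2, 26.2 and 26.9 in AdVEGF mice. The order of the groups was as for Gsta1, again with AdCMV 3 on top (log2 fold change -1.85, SE 0.40, adjusted p = 0.00298, and after scaling -2.26, SE 0.35, adjusted p = 0.000482). Both kept their calls when any single mouse was left out. Without AdCMV 3 and AdVEGF 4 together, the log2 fold changes were -1.46 for Gsta1 (adjusted p = 0.00135) and -1.27 for Gsta2 (adjusted p = 0.000807), and both were still called lower.

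Gsta3, the most abundant alpha-class transcript in liver here, was at 540, 671, 607, 329 and 496 RPKM in AdCMV mice and 394, 281, 370.2, 204 and 297 in AdVEGF mice. The groups touched, as AdVEGF 1 and AdVEGF 3 exceeded AdCMV 4 (log2 fold change -0.77, SE 0.24, adjusted p = 0.0294). After scaling it was called lower, -1.17 (SE 0.23, adjusted p = 0.00250). Gsta4, which acts on the lipid peroxidation product hydroxynonenal, was at 67.1, 111, 284, 48.5 and 68.1 RPKM and 70.5, 58.0, 56.5, 50.8 and 44.3. AdCMV 3 was again the highest, and 3 of the other AdCMV mice lay within the AdVEGF range (log2 fold change -0.75, SE 0.35, adjusted p = 0.129). After scaling Gsta4 was called lower, -1.15 (SE 0.29, adjusted p = 0.0131), but without AdCMV 3 it was not, at -0.87.

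**Figure D3:**
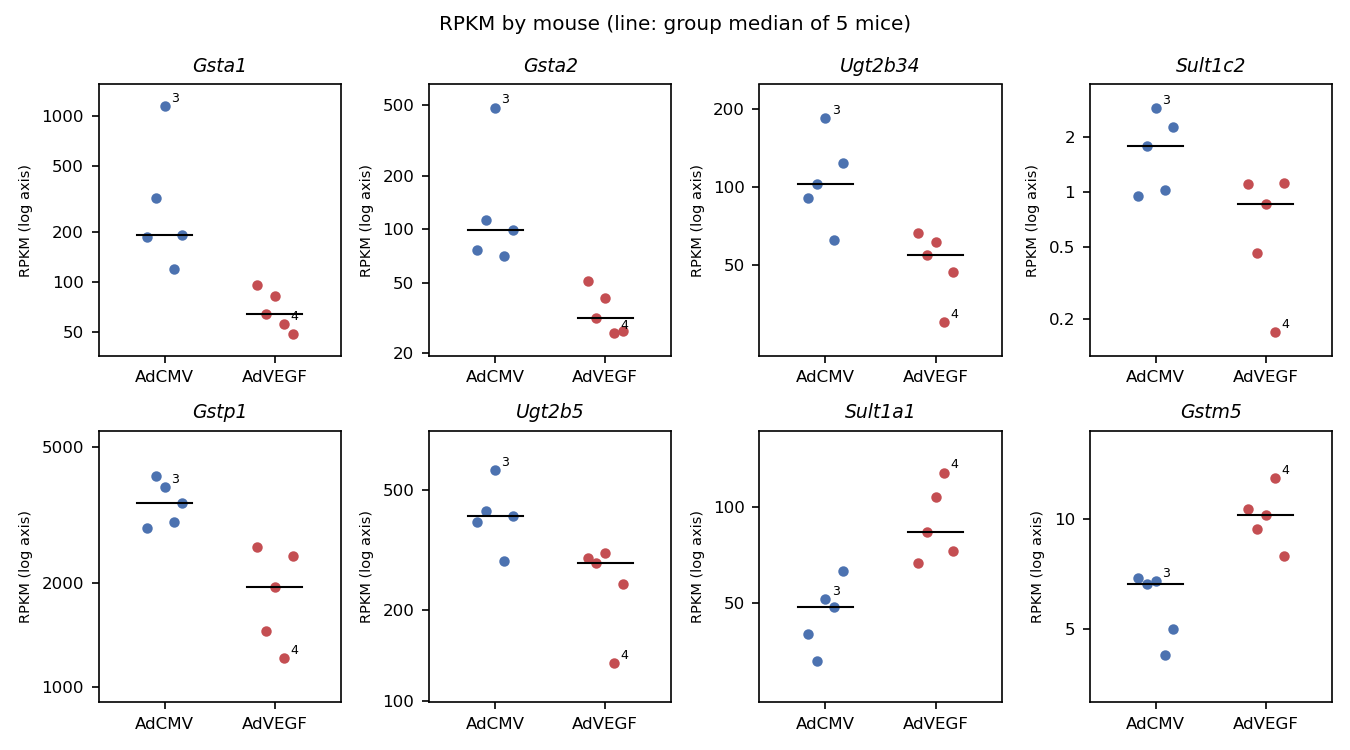
RPKM by mouse on log axes for 8 members, with the 5 AdCMV mice in blue, the 5 AdVEGF mice in red, lines at the group medians, and the digits 3 and 4 beside AdCMV 3 and AdVEGF 4. Gsta1 and Gsta2 separate the groups, with AdCMV 3 at 1147 and 483 RPKM. Sult1a1 and Gstm5 are higher in every AdVEGF mouse on this scale.

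The pi-class enzymes Gstp1 and Gstp2 were the most abundant members. Gstp1 is in mouse a male-predominant enzyme of the liver, and both promoters match the letters of an AP-1 site. Their windows are printed because of this shared match and the near-identity of the pair, with TGAGTCA (the reverse complement of TGACTCA) in capitals. Gstp1 is at chr19:4037863-4038162 and Gstp2 at chr19:4042172-4042471, both on the minus strand of GRCm38.p6. The match starts 74 bases before the start of Gstp1 and 89 bases before that of Gstp2.
Gstp1: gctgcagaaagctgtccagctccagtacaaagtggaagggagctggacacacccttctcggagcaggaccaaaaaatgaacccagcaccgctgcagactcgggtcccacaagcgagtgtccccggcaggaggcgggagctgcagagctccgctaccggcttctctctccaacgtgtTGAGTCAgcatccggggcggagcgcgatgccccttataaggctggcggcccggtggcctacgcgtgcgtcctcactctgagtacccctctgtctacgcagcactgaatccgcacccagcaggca
Gstp2: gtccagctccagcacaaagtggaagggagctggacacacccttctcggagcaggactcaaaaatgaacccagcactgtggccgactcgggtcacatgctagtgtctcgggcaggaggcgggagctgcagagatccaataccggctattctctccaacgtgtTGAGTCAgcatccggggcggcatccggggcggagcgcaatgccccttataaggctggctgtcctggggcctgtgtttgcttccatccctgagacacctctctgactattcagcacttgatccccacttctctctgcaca

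These windows are 87.5% identical over 281 aligned bases. TGACTCA, searched on both strands, is in 5.20% of all promoter windows and in 8 of the 64 member windows (12.5%). Of the 50-base words of Gstp1, 62.3% occur in Gstp2, so their values cannot be taken as separate measurements. The table places them next to each other at chr19:4035411-4037912 and chr19:4040288-4042221 (mm9).

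Gstp1 was at 2908, 4122, 3825, 3031 and 3425 RPKM in AdCMV mice and at 2549, 1452, 1949.7, 1215 and 2399 in AdVEGF mice. The groups did not overlap, although the fall stayed under the log2 limit of a call on the deposited RPKM (log2 fold change -0.90, SE 0.26, adjusted p = 0.0204). Gstp2 was at 2775, 4039, 3542, 2922 and 3072 RPKM and 2429, 1404, 1882, 1198 and 2185, also without overlap (log2 fold change -0.88, SE 0.26, adjusted p = 0.0203). After scaling both were called lower, Gstp1 at -1.30 (SE 0.30, adjusted p = 0.00740) and Gstp2 at -1.28 (SE 0.29, adjusted p = 0.00740). Both calls held after scaling with any 1 mouse left out and without AdCMV 3 and AdVEGF 4 together.

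The mu-class genes lie side by side on chromosome 3, from Gstm5 at chr3:107698772-107701603 to Gstm4 at chr3:107843326-107847774 (mm9), and did not move as one. Gstm1, the main hepatic mu-class enzyme, was at 579, 999, 1644, 418 and 795 RPKM in AdCMV mice and 611, 423, 877, 251 and 723 in AdVEGF mice. The ranges overlapped widely, and Gstm1 was called on neither scale (log2 fold change -0.59, SE 0.37, adjusted p = 0.244, and after scaling -0.99, SE 0.35, adjusted p = 0.0593). Gstm2 was at 37.4, 41.5, 142, 20.7 and 48.6 RPKM and 34.8, 22.3, 29.5, 18.1 and 23.4. AdCMV 3 was the highest and AdVEGF 4 the lowest, with overlap between the groups on the deposited RPKM (log2 fold change -0.90, SE 0.37, adjusted p = 0.0825).

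Gstm3 was the most variable of the class, at 76.6, 149.6, 602, 42.2 and 157 RPKM in AdCMV mice and 70.2, 50.8, 90.2, 14.3 and 70.4 in AdVEGF mice. AdCMV 3 was far above the rest of its group, and AdVEGF 4 was far below the rest (log2 fold change -1.42, SE 0.57, adjusted p = 0.0773). Gstm4 was at 28.2, 41.2, 61.2, 18.9 and 32.9 RPKM and 21.8, 13.1, 28.2, 9.19 and 18.7, with AdCMV 4 inside the AdVEGF range and AdCMV 1 level with AdVEGF 3 (log2 fold change -0.99, SE 0.32, adjusted p = 0.0311). Gstm6 was at 49.3, 43.7, 68.2, 29.7 and 45.0 RPKM and 49.1, 23.7, 39.6, 15.3 and 28.8, with 3 of the 5 AdCMV mice inside the AdVEGF range (log2 fold change -0.65, SE 0.29, adjusted p = 0.105).

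After scaling these 4 genes were called lower, Gstm2 at -1.30 (SE 0.29, adjusted p = 0.00677), Gstm3 at -1.83 (SE 0.57, adjusted p = 0.0345), Gstm4 at -1.39 (SE 0.28, adjusted p = 0.00318) and Gstm6 at -1.06 (SE 0.27, adjusted p = 0.0123). Without AdCMV 3 and AdVEGF 4 together, only Gstm4 of the 4 was still called on the scaled values (-1.07, adjusted p = 0.00867), and Gstm2, Gstm3 and Gstm6 were at -0.89, -0.95 and -0.79. With 1 mouse left out, the scaled call of Gstm3 held in 5 of 10 fits and that of Gstm6 in 7, whereas Gstm2 and Gstm4 kept theirs in all 10. Gstm7 had a scaled log2 fold change of -0.60 and was not called. The odd member was Gstm5, whose groups did not overlap in the other direction and which is named here after its values were seen. Gstm5 was at 6.90, 6.66, 6.76, 4.24 and 5.01 RPKM in AdCMV mice and 10.7, 9.41, 10.3, 13.0 and 7.92 in AdVEGF mice (log2 fold change 0.79, SE 0.21, adjusted p = 0.0115). After scaling it was at 0.39 (SE 0.17, adjusted p = 0.116) and its groups overlapped.

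In the remaining soluble Gst classes, no gene was called on the deposited RPKM and 2 were after scaling. Gstk1, the kappa-class enzyme of mitochondria and peroxisomes, was at 69.6, 68.8, 92.7, 53.8 and 46.2 RPKM in AdCMV mice and 55.1, 42.6, 41.0, 37.6 and 29.1 in AdVEGF mice. AdVEGF 1 exceeded AdCMV 4 and AdCMV 5, so the groups overlapped (log2 fold change -0.68, SE 0.22, adjusted p = 0.0360), and after scaling Gstk1 was called lower at -1.08 (SE 0.19, adjusted p = 0.00146). The theta-class gene Gstt3 was at 11.7, 9.65, 24.5, 6.88 and 7.17 RPKM and 5.34, 3.46, 6.03, 13.0 and 4.06. AdCMV 3 and AdVEGF 4 were each the highest of their group, and without AdVEGF 4 Gstt3 was called lower on the deposited RPKM too (log2 fold change -0.89, SE 0.36, adjusted p = 0.0794 with all mice, and after scaling -1.29, SE 0.33, adjusted p = 0.0132).

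Gstt1, Gstt2, Gstz1 and Gsto1 were called on neither scale, with deposited log2 fold changes of -0.22, 0.13, 0.03 and 0.40 and scaled ones of -0.62, -0.27, -0.37 and -0.0013. Gstz1, the maleylacetoacetate isomerase of tyrosine breakdown, was at 139 ± 17.2 RPKM in AdCMV mice and 142 ± 12.9 in AdVEGF mice (SD, n = 5). Its 95% confidence interval of the log2 fold change was -0.34 to 0.41 on the deposited RPKM and -0.72 to -0.01 after scaling.

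At the Ugt1a locus on chromosome 1, the rows of 7 transcripts end at the same base, 90116577 (mm9), and an eighth row, Ugt1a6b, is shorter. Ugt1a1 is the enzyme that conjugates bilirubin, and Ugt1a6a and Ugt1a9 act on phenols. The promoters of Ugt1a1 (chr1:88211709-88212008) and Ugt1a9 (chr1:88070529-88070828), both on the plus strand of GRCm38.p6, show that each first exon has its own start. Capitals mark ATTAAC, the reverse complement of GTTAAT, part of the site of the hepatocyte factor HNF1, 41 bases before the start of Ugt1a1 and 91 before that of Ugt1a9.
Ugt1a1: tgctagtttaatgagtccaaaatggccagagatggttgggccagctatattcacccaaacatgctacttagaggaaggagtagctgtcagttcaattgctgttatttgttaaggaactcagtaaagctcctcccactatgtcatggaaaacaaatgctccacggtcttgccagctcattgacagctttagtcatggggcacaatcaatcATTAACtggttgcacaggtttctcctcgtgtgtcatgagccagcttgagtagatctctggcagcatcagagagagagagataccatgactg
Ugt1a9: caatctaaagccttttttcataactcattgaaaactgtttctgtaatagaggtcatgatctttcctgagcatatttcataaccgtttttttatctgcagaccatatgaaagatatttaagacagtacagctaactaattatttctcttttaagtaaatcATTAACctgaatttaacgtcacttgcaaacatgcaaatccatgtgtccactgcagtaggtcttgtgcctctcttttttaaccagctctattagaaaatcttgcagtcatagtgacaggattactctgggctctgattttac

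GTTAAT, searched on both strands, is in 7.10% of all promoter windows and in 13 of the 64 member windows (20.3%), among them also those of Ugt1a10, Ugt1a6a, Gsta3 and Sult1a1. A match of letters is a description and not a site shown to be bound. The core of the antioxidant response element through which Nrf2 acts, TGACNNNGC, is in 12.4% of all windows and in 3 member windows, those of Gsta3, Gstm5 and Gstm7. The TATA box letters TATAAA are in 13.6% of all windows and in 13 of the 64 member windows.

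Because the shared exons dominate, the 8 rows had nearly the same fold change, -0.51 to -0.47 on the deposited RPKM and -0.91 to -0.87 after scaling, and none was called. They amount to about 1 measurement. Ugt1a6b had the highest RPKM of these rows, but its row is shorter, at 2285 bases against 3222 for Ugt1a1. Its reads in AdCMV mice were 2446 to 7465, against 2571 to 7678 for Ugt1a1. Ugt1a6b was at 201, 242, 257, 152 and 186 RPKM in AdCMV mice and 186, 151, 167, 125 and 120 in AdVEGF mice. The ranges overlapped on the deposited RPKM (log2 fold change -0.47, SE 0.21, adjusted p = 0.110), and after scaling they did not (-0.87, SE 0.17, adjusted p = 0.00236).

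In each mouse, the row with the fewest reads of the 7 with a common end held 83.4% to 95.4% of the reads of the row with the most. The reads above that lowest row, given per 1e6 mapped tags, approximate what falls on each first exon and are described without a test. For Ugt1a1 they were 38.8, 26.3, 62.7, 45.0 and 74.0 in AdCMV mice and 39.0, 35.1, 43.8, 15.4 and 37.7 in AdVEGF mice, with AdVEGF 4 the lowest. Ugt1a6a had a mean of 35.2 ± 20.5 in AdCMV mice and 23.7 ± 10.3 in AdVEGF mice (SD, n = 5), with wide overlap.

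For Ugt1a9 the reads above the lowest row were 13.7, 8.45, 52.7, 7.21 and 31.3 in AdCMV mice and 11.2, 3.10, 10.0, 1.48 and 11.4 in AdVEGF mice. AdCMV 1, AdCMV 3 and AdCMV 5 were above the whole AdVEGF group, and AdCMV 2 and AdCMV 4 were within it. Ugt1a5 had a mean of 6.45 ± 3.09 in AdCMV mice and 3.28 ± 1.30 in AdVEGF mice (SD, n = 5). Ugt1a2, Ugt1a7c and Ugt1a10 had at most 17 reads above the lowest row in any mouse.

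**Figure D4:**
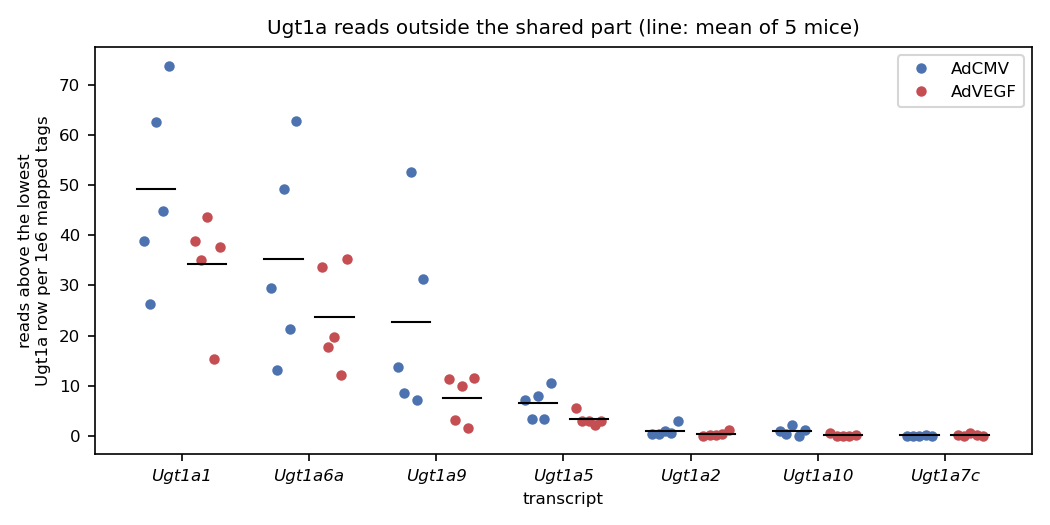
Reads above the lowest of the 7 Ugt1a rows with a common end, per 1e6 mapped tags, for each of the 7 transcripts in the 5 AdCMV (blue) and 5 AdVEGF mice (red), with lines at the means. Ugt1a1 and Ugt1a6a hold most of these reads in both groups, and Ugt1a2, Ugt1a10 and Ugt1a7c lie near 0.

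The Ugt2b enzymes, which conjugate steroids and bile acids, form a cluster on chromosome 5, from Ugt2b34 at chr5:87318795-87335962 to Ugt2b38 at chr5:87838965-87853228 (mm9). All 7 were tested, 1 was called lower on the deposited RPKM and 6 after scaling, and the subfamily median was -0.83 and -1.24. Ugt2b34 was at 90.8, 103, 185, 62.4 and 124 RPKM in AdCMV mice and 66.9, 54.7, 61.8, 30.2 and 47.4 in AdVEGF mice. AdCMV 4 was inside the AdVEGF range and the other AdCMV mice were above it (log2 fold change -1.07, SE 0.28, adjusted p = 0.0101, and after scaling -1.47, SE 0.21, adjusted p = 0.000269). Its call on the deposited RPKM was lost with voom on the recovered reads and without AdCMV 3 or without AdVEGF 4. In these 2 leave-out fits the log2 fold changes were still at or below -0.87. On the scaled values the call held in all 10 fits that leave out a mouse. Without AdCMV 3 and AdVEGF 4 together, Ugt2b34 was not called on the deposited RPKM (-0.69, adjusted p = 0.0247). On the scaled values it was then still called lower (-1.20, adjusted p = 0.000186).

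Ugt2b5, the most abundant Ugt row, was at 391, 428, 582, 291 and 409 RPKM and 298, 286, 309, 134 and 245. AdVEGF 1 and AdVEGF 3 exceeded AdCMV 4, and AdVEGF 4 had less than any other mouse (log2 fold change -0.75, SE 0.26, adjusted p = 0.0422, and after scaling -1.15, SE 0.23, adjusted p = 0.00286). Ugt2b36 was at 198, 229.7, 287, 175 and 247 RPKM in AdCMV mice and 167, 155, 165, 80.2 and 145 in AdVEGF mice, without overlap (log2 fold change -0.70, SE 0.23, adjusted p = 0.0367, and after scaling -1.10, SE 0.21, adjusted p = 0.00196). Ugt2b35 was at 66.9, 78.4, 122, 38.4 and 78.9 RPKM and 57.6, 45.9, 46.9, 22.4 and 38.4, with AdCMV 4 inside the AdVEGF range (log2 fold change -0.83, SE 0.29, adjusted p = 0.0459, and after scaling -1.24, SE 0.24, adjusted p = 0.00250).

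For Ugt2b1, values were 78.3, 64.1, 67.8, 56.8 and 83.4 RPKM in AdCMV mice and 60.5, 45.7, 45.0, 8.92 and 46.6 in AdVEGF mice. AdVEGF 4 was far below every other mouse, and AdVEGF 1 reached the AdCMV range (log2 fold change -0.99, SE 0.38, adjusted p = 0.0687, and after scaling -1.39, SE 0.44, adjusted p = 0.0366). For Ugt2b38 they were 86.2, 96.8, 165, 99.8 and 142 and 87.9, 78.9, 85.2, 26.2 and 70.2, again with AdVEGF 4 lowest (log2 fold change -0.83, SE 0.30, adjusted p = 0.0546, and after scaling -1.24, SE 0.30, adjusted p = 0.00938). Without AdVEGF 4, Ugt2b1, Ugt2b5, Ugt2b36 and Ugt2b38 were not called on the scaled values, with log2 fold changes of -0.89 to -0.92. The call of Ugt2b1 held in 3 of the 10 fits that leave out a mouse. The seventh gene, Ugt2b37, was not called (-0.87, SE 0.41, adjusted p = 0.153 after scaling), and Ugt2b5 and Ugt2b38 share 34.8% of the 50-base words of Ugt2b5.

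The other Ugt genes showed no call. Ugt2a3, a hepatic and intestinal enzyme, was at 44.7 ± 6.10 RPKM in AdCMV mice and 46.1 ± 11.4 in AdVEGF mice (SD, n = 5; 0.02, and -0.39 after scaling). Ugt3a2 was at 43.9 ± 10.5 and 51.4 ± 13.8 RPKM (0.21, and -0.19 after scaling). Its neighbour Ugt3a1 was at 19.8 ± 4.04 and 14.6 ± 1.84 RPKM, and after scaling had -0.83 (SE 0.23, adjusted p = 0.0194), short of the limit on the fold change. Ugt2a1 and Ugt2a2, which share 68.4% of the words of Ugt2a1, had at most 1.29 RPKM in any mouse.

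Of the 7 Sult genes tested, 1 was called lower on the deposited RPKM and 2 after scaling. Sult1a1, the phenol sulfotransferase, was the member with the highest fold change. It was at 40.2, 33.1, 51.4, 48.6 and 63.3 RPKM in AdCMV mice and 66.8, 83.3, 107, 128 and 72.6 in AdVEGF mice. Every AdVEGF value was above every AdCMV value, and AdVEGF 4 was the highest (log2 fold change 0.94, SE 0.23, adjusted p = 0.00655). The estimate of a 1.92-fold higher level fell short of a call, and after scaling it was 0.54 (SE 0.20, adjusted p = 0.0740) with overlapping groups. With voom on the recovered reads, or without AdCMV 5, AdVEGF 1 or AdVEGF 5, Sult1a1 was called higher on the deposited scale.

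Sult1c2 was scarce, at 0.949, 1.78, 2.88, 1.02 and 2.27 RPKM in AdCMV mice and 1.10, 0.463, 0.860, 0.169 and 1.12 in AdVEGF mice. These values rest on 10 to 35 reads and 2 to 11 reads a mouse, and the groups overlapped (log2 fold change -1.24, SE 0.43, adjusted p = 0.0443, and after scaling -1.58, SE 0.40, adjusted p = 0.0126). The call on the deposited RPKM was lost in 6 of the 10 fits that leave out a mouse, those without AdCMV 2, 3 or 5 or AdVEGF 2, 3 or 4, in which the adjusted p went up to 0.103. That call was also lost with voom, with a pseudocount of 1 or of 0.01, and with no filter. Sult5a1 was at 4.32, 2.00, 2.76, 6.08 and 3.62 RPKM and 2.32, 3.63, 1.71, 0.961 and 1.81, overlapping (log2 fold change -0.84, SE 0.33, adjusted p = 0.0762, and after scaling -1.23, SE 0.40, adjusted p = 0.0422). On the scaled values its call held in 3 of the 10 fits that leave out a mouse.

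Sult1d1, which acts on catecholamines and phenols, was at 31.6, 35.6, 46.0, 28.6 and 34.5 RPKM in AdCMV mice and 30.5, 29.7, 28.5, 23.5 and 23.4 in AdVEGF mice. The groups overlapped on the deposited RPKM and not after scaling, where its fold change of -0.77 (SE 0.12, adjusted p = 0.000529) had a small error and missed the limit of -1. Sult2a8, a bile acid sulfotransferase of the liver, was at 121, 78.1, 54.6, 105 and 122 RPKM and 87.0, 118, 59.0, 8.89 and 73.4. AdVEGF 4 was far below the 9 other mice, and the others overlapped (log2 fold change -0.81, SE 0.50, adjusted p = 0.243, and after scaling -1.21, SE 0.61, adjusted p = 0.180). Sult1b1, which sulfates thyroid hormones, was at 6.21 ± 1.05 and 6.59 ± 2.07 RPKM (SD, n = 5) and was not called.

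Sult1e1 was listed at 0 in 4 of the 5 AdVEGF mice and at 4.72 RPKM in AdVEGF 4, and in AdCMV mice it was at 0.442, 0.237, 1.12, 0.0850 and 0 RPKM. Its fold change was not called and has an SE of 0.98.

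Several gene lists outside the members stood apart in AdCMV 3, the mouse with the high values of Gsta1, Gsta2, Gsta4, Gstm2 and Gstm3. Each gene's scaled RPKM there was divided by the median of the other 4 AdCMV mice. The median of this ratio over the male-biased hepatocyte list was 0.451, with 10 of 11 genes the lowest of the group. It was 1.71 over the female-biased list, with 5 of 8 genes the highest, and 0.585 and 0.590 over the hepatocyte and Kupffer lists. AdCMV 3 was not alone in this, as AdVEGF 3 had medians of 0.563 over the male-biased and 1.91 over the female-biased list against its own group. Cyp2a4, a female-biased P450, was at 557 RPKM in AdCMV 3 and at 26.3 to 92.3 in the other AdCMV mice. The Nrf2 list, genes that are no members and that this factor is known to induce, was among the lists that were higher. Of its 14 tested genes, 9 were highest in AdCMV 3 among the AdCMV mice, and the median ratio of the list was 1.65. Srxn1, a sulfiredoxin, was at 23.6, 41.2, 139, 24.1 and 35.1 RPKM in AdCMV mice and 23.6, 19.1, 20.1, 14.9 and 14.0 in AdVEGF mice. Cbr3, a carbonyl reductase, was at 3.09, 8.80, 62.5, 2.83 and 4.63 and 1.38, 2.55, 1.84, 1.59 and 1.02 RPKM. In both, AdCMV 3 stood apart in the same way as in Gsta1 and Gstm3, and the part of this in the members' values was not tested.

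Between the groups, 3 of the 14 Nrf2 list genes were called lower on the deposited RPKM, Cbr3 (log2 fold change -2.15, SE 0.61, adjusted p = 0.0168), Me1 (log2 fold change -1.41, SE 0.36, adjusted p = 0.00873) and Srxn1 (log2 fold change -1.18, SE 0.37, adjusted p = 0.0291). After scaling Nqo1 was called too (-1.18, SE 0.29, adjusted p = 0.0106), none was called higher, and the list's median was -0.28 and -0.68. The gene of the factor itself, Nfe2l2, had log2 fold changes of 0.22 and -0.18 and was not called.

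**Figure D5:**
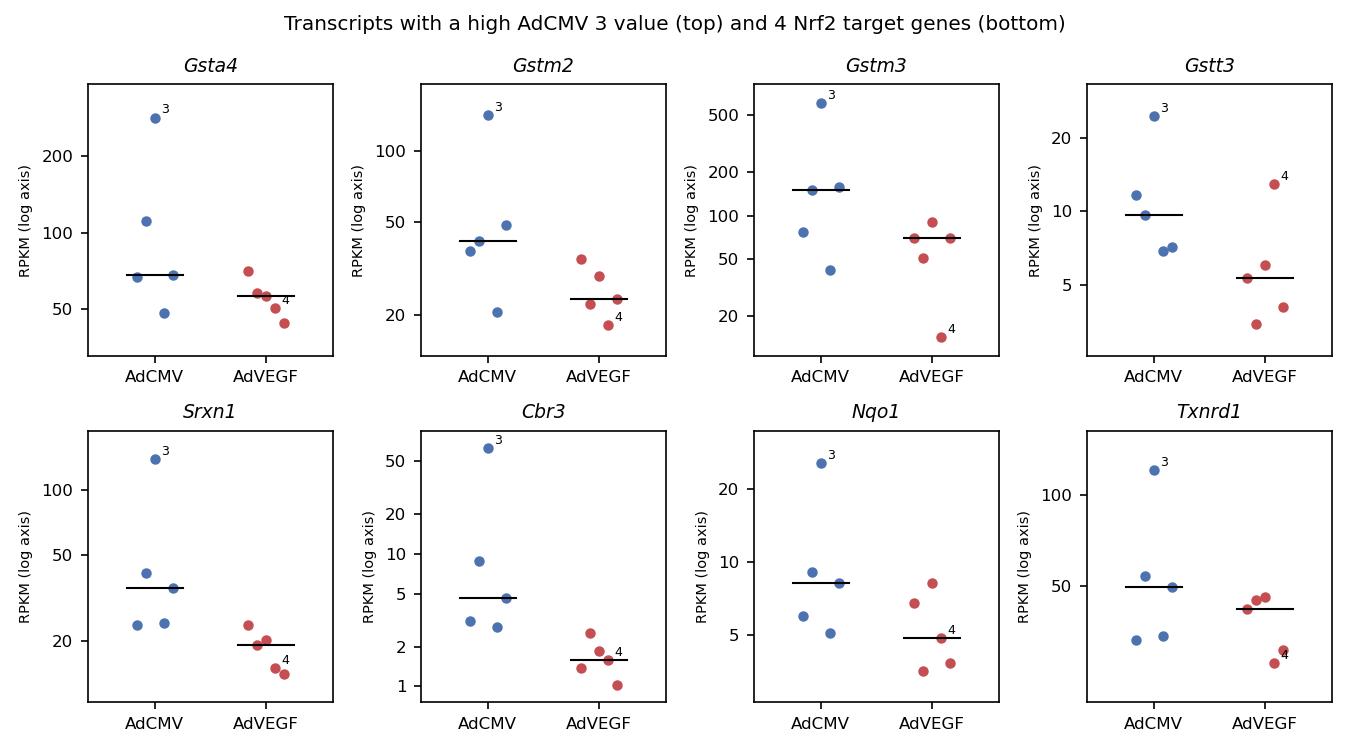
RPKM by mouse on log axes for the 4 members Gsta4, Gstm2, Gstm3 and Gstt3 and for 4 genes of the Nrf2 list, with AdCMV mice in blue, AdVEGF mice in red, lines at the medians, and the digits 3 and 4 beside AdCMV 3 and AdVEGF 4. The 4 members were picked for their high AdCMV 3 value. The 4 Nrf2 list genes are a part of the 14 tested, of which 9 were highest in AdCMV 3 among AdCMV mice (scaled RPKM). AdCMV 3 is the highest of the 10 mice in these 8 plots, at 602 RPKM for Gstm3 and 62.5 RPKM for Cbr3.

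AdVEGF 4 differed from its group in other hepatocyte genes as well. Its scaled level of the tested P450 targets of AhR, CAR and PXR had a median of 0.367 times that of the other 4 AdVEGF mice. For the male-biased hepatocyte genes the median was 0.32 times, and for the female-biased ones 0.482 times. Cyp1a2 was at 1.37 RPKM there against 32.6 to 54.5 in its group, and Nnmt, the nicotinamide N-methyltransferase, at 359.9 against 22.7 to 35.4. The part of this mouse in the members' results was not tested beyond the fits without it. On the scaled values 13 members were called lower without AdVEGF 4, 19 without AdCMV 3 and 12 without both, and all 12 were among the 20. Of the 20, 19 kept an adjusted p under 0.05 without both mice.

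Of the 10 genes that supply the donors of conjugation, none was called on the deposited RPKM and 2 were after scaling. Ugp2 and Ugdh, which make UDP-glucose and UDP-glucuronate, had log2 fold changes of -0.85 and -0.85 on the deposited RPKM and were called lower after scaling (-1.25, SE 0.20, adjusted p = 0.000582 for Ugp2, and -1.26, SE 0.23, adjusted p = 0.00175 for Ugdh). In AdVEGF mice Ugdh was at 54.5, 52.7, 62.8, 31.0 and 44.0 RPKM, and in AdCMV mice at 69.9, 99.3, 182, 49.9 and 75.5, with AdCMV 3 the highest. The 8 other genes, those of PAPS and glutathione metabolism and the UDP-sugar transporter Slc35d1, were called on neither scale, and the median of all 10 was -0.27 and -0.67. Gclc, which sets the rate of glutathione synthesis, had -0.21 and -0.61.

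Of the 13 other phase II enzymes tested (methyl-, acetyl- and acyltransferases, microsomal Gst and epoxide hydrolases), 1 was called lower on both scales, the methyltransferase Inmt (log2 fold change -1.05, SE 0.21, adjusted p = 0.00170). The list's median was -0.17 and -0.57. Of 5 deconjugating enzymes tested, Ggt5 was called higher on the deposited RPKM (log2 fold change 1.04, SE 0.34, adjusted p = 0.0337) and not after scaling. Among 12 transporters, the organic anion uptake carrier Slco1b2 was called lower on both scales (log2 fold change -1.06, SE 0.24, adjusted p = 0.00362), the conjugate exporter Abcc4 higher on both (log2 fold change 1.78, SE 0.35, adjusted p = 0.00143), and Slco1a4 higher on the deposited RPKM alone.

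None of the 12 xenobiotic receptors and regulators was called on either scale, with medians of 0.04 and -0.36. Of the 7 tested P450 genes that these receptors induce, none was called on the deposited RPKM and 4 were lower after scaling, Cyp1a1, Cyp2c55, Cyp3a11 (-1.31, SE 0.28, adjusted p = 0.00499) and Cyp3a25 (-1.16, SE 0.19, adjusted p = 0.000789).

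Many Ugt and Gst enzymes are enriched near the central vein. Of the 11 genes of the pericentral list, 6 were called lower on the deposited RPKM and 7 after scaling, with Glul at log2 fold change -2.23, SE 0.23, adjusted p = 1.92e-06. None of the 10 periportal genes was called on either scale, with medians of 0.52 and 0.12. Of the 10 general hepatocyte genes, Alb, Apoa1 and Ahsg were called higher on the deposited RPKM and Ahsg after scaling, and none lower. The male-biased list had 3 of 11 genes called lower, and 4 after scaling, and the female-biased list 3 of 8 and 6 of 8, with none higher. For both of these lists the medians were below 0 on both scales, at -0.14 and -0.54 for male-biased and -1.02 and -1.42 for female-biased genes. The calls hold closely named genes that moved together, Cyp4a12a with Cyp4a12b and Cyp3a41a with Cyp3a41b. Whether these share reads was not tested, so their calls may not be independent. The part of zonation or of sex-biased expression in the members' values was not tested.

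Markers of other liver cells moved between the groups as well. All 12 endothelial genes were called higher on both scales, with a summed RPKM of 41.3 to 81.3 in AdCMV mice and 349 to 436 in AdVEGF mice. Of 8 stellate cell genes 7 were higher, with sums of 74.7 to 123 and 182 to 360.01 RPKM. For Kupffer cells 2 of 10 were higher (sums 139 to 300.2 and 288 to 446 RPKM), and of 5 tested cholangiocyte genes Spp1 alone (sums 24.9 to 54.6 and 281 to 727 RPKM). Of 8 T and NK cell genes 4 were lower on the deposited RPKM and 6 after scaling (sums 26.1 to 65.9 and 21.2 to 37.0 RPKM). Of 5 tested erythroid genes none was called (sums 1243 to 2830.0 and 837 to 3077 RPKM). The part of these cells in the members' values was not tested.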

How the data were processed

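Total RNA depleted of ribosomal RNA was sequenced from the liver of 10 mice. Per the labels, the authors used TopHat and HOMER with the mouse build mm9, and they deposited RPKM for 24016 RefSeq transcripts in each mouse, without further scaling between libraries. The deposited table also holds the authors' own log2 fold change and FDR, which were not used. How reads shared by similar transcripts were counted, and whether strand was used, is not given in the sources used here.

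Samples were grouped by their labels, which call them biological replicates. The members and gene lists were chosen with earlier results of these data known. Whole reads were recovered from the steps of the RPKM values, where 100% of values up to 200 reads fell within 0.1 of a whole number in each library; a limit of 3 reads covers counting error only. No library repeated another, as the variance between 2 of a group was 12.5 times counting noise or more. The 5 rows without a symbol, at most 0.00534% of reads, were left out.

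limma (version 3.58.1, R 4.3.3; lmFit, eBayes with trend) was run on log2(RPKM + 0.1) over 13933 rows whose mean exceeded 0.5 RPKM in either group, and p-values were adjusted over all of them by Benjamini-Hochberg. Fold changes on this scale understate those of low rows. A call needed an adjusted p under 0.05 and an absolute log2 fold change over 1. The fit was tested on simulated data. Scaled values are RPKM divided by median-ratio factors. Count tests were not used on RPKM, except voom on the recovered reads as an alternative. Values by mouse are given for members called on either scale and the 3 most abundant members of each of the 3 families, and also for Gstm5 and Sult1e1, which were chosen after their values were seen. Alternatives were 3 scalings, 2 pseudocounts, 2 filters, 1 row per symbol, voom, treat, a replicate block and leaving out each mouse. Fits without AdCMV 3 and AdVEGF 4 together, and leave-out fits on scaled values, were added after the values had been seen. Promoters are RefSeq windows (GRCm38.p6), matched by symbol for 53 members. Transcripts of all 61 members came from GENCODE by RefSeq accession and were compared in words of 50 bases and by global alignment (biopython 1.88).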

Additional observations from a re-analysis of the deposited data

Results flagged for a closer look

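Dixon's criterion (gap over range above 0.71) was applied to the 92 sets of 5 deposited RPKM values that the 46 tested members give. In 10 of them, 1 mouse lay outside the spread of the 4 others. The criterion was used on RPKM without the logarithm of the fit. On that scale a high mouse is marked more easily and a low mouse less easily than on log values. Chance alone marks about 1 in 20 independent sets of normally distributed values. The sets are not independent, as Gsta1 and Gsta2 share reads, and Sult1e1 was tested only because of its value in AdVEGF 4, so the count is not read against that share. AdCMV 3 was the high mouse 6 times. Its RPKM was 1147 for Gsta1 (others 119.9 to 321), 483 for Gsta2 (70.5 to 113), 284 for Gsta4 (48.5 to 111), 142 for Gstm2 (20.7 to 48.6), 602 for Gstm3 (42.2 to 157) and 24.5 for Gstt3 (6.88 to 11.7). The criterion was not applied to the scaled values, where the factor of AdCMV 3 was 1.23 and those of the other AdCMV mice were 0.664 to 0.997. On that scale AdCMV 3 was at 231 for Gsta4 (others 68.2 to 138) and at 19.9 for Gstt3 (7.18 to 14.9). AdVEGF 4 was the distant mouse in the 4 other sets. It was high for Gstt3 at 13.0 RPKM (others 3.46 to 6.03) and for Sult1e1 at 4.72 RPKM, where the 4 others were listed at 0, and low for Ugt2b36 at 80.2 RPKM (145 to 167) and for Ugt2b38 at 26.2 RPKM (70.2 to 87.9).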

How the results depend on the processing

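No member was called higher under any scaling, filter or pseudocount tried, and voom alone of the other tests called 1, Sult1a1. On the recovered reads, voom called Gsta1, Gsta2 and Gstm3 lower and neither Ugt2b34 nor Sult1c2. For higher calls, leaving out 1 mouse gave 0 to 1. The 4 members called lower became 20 with median-ratio scaling, 20 with upper quartile scaling, 20 with library totals without the Mup genes and 0 with treat, whose null hypothesis is a change within the call limit. With a pseudocount of 1, a pseudocount of 0.01 or no filter, 3 were lower and Sult1c2 was not. Leaving out 1 mouse gave 2 (without AdCMV 3) to 8 (without AdCMV 4), and 7 without AdVEGF 1, and leaving out AdCMV 3 and AdVEGF 4 together gave 2. After median-ratio scaling, the 20 lower calls became 13 to 20 without 1 mouse (13 without AdVEGF 4) and 12 without AdCMV 3 and AdVEGF 4 together. Of all rows, 1082, 1125 and 1059 were higher and 438, 393 and 446 lower with these 3 scalings, against 1808 and 214 on the deposited RPKM; a pseudocount of 1 gave 954 higher, and treat gave 503 higher and 36 lower. Without 1 mouse, 1425 to 2357 rows were higher and 178 to 225 lower. The cause of these changes was not tested beyond the scaling itself.

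Of 46 members, 35 kept the sign of their log2 fold change under all 22 alternatives. The 11 others were all uncalled on the deposited RPKM. With median-ratio scaling the fold changes that turned negative were Gstt2 -0.27, Gstz1 -0.37, Sult1b1 -0.35, Ugt2a1 -0.31, Ugt2a2 -0.31, Ugt2a3 -0.39 and Ugt3a2 -0.19, and Gsto1 -0.00129. With upper quartile scaling they were Gstt2 -0.23, Gstz1 -0.32, Sult1b1 -0.31, Ugt2a1 -0.27, Ugt2a2 -0.27, Ugt2a3 -0.34 and Ugt3a2 -0.15. With totals without the Mup genes they were Gstt2 -0.28, Gstz1 -0.38, Sult1b1 -0.36, Ugt2a1 -0.32, Ugt2a2 -0.32, Ugt2a3 -0.40 and Ugt3a2 -0.20, and Gsto1 -0.0129. A pseudocount of 0.01 gave Ugt2a1 -0.00428 and Ugt2a2 -0.00327, and a pseudocount of 1 gave Sult1e1 0.0963. Leaving out AdCMV 3 and AdVEGF 4 together gave Gstm7 0.021 and Ugt2b37 0.24. Leaving out 1 mouse moved Gstt2 over -0.13 to 0.32, Gstz1 over -0.018 to 0.0813, Sult1b1 over -0.0945 to 0.20, Ugt2a1 over -0.19 to 0.37, Ugt2a2 over -0.17 to 0.35, Ugt2a3 over -0.0838 to 0.17.

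The deviations of same-numbered mice of the 2 groups had positive correlations, from 0.00763 to 0.291, and 3 of 5 mice were closest to their own number. The main fit held no pairing, and whether the number marks a batch was not tested. With the replicate number as a block, 5 members were lower on the deposited RPKM and 19 after scaling. Adjusted p was then under 0.05 for 22 members and 4138 of all rows on the deposited RPKM, against 14 and 3366 without the block. The block added Gstm3 on the deposited RPKM (adjusted p = 8.53e-05) and took Sult5a1 from the scaled calls.

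Depth limits Sult1c2, Sult1e1, Ugt2a1, Ugt2a2 and the 15 members below the filter, whose values rest on few reads.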
